A study of Mus musculus with 4 samples.

Results

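Repeated binge-like ethanol was compared with vehicle in the brain of young mice by Visium spatial expression profiling, in which a tissue section lies on a slide of barcoded capture spots and each spot takes up RNA from several neighbouring cells. The 2 young libraries kept 5597 of the 10942 spots with at least 500 unique molecular identifiers (UMIs, each standing for 1 captured molecule), 2716 from vehicle and 2881 from ethanol. The remaining spots belonged to an aged pair treated alike. All groups were wild-type female C57BL/6 mice from the National Institute on Aging rodent colony, 3 to 4 months old in the young pair and 18 to 20 months old in the aged pair. They received water as vehicle, or ethanol at 3 g/kg, by intragastric gavage every other day, 10 exposures in the course of 18 days. Brains were collected 18 hours after the final dose. Left hemispheres were cut coronally at 10 µm. Each group was 1 library, the number of animals behind a library was not given in the sources used here, and animal, section, slide position and treatment cannot be told apart. There was therefore no replicate check and no test between conditions, and the p-values and standard deviations that replicates would give are absent throughout.

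Ethanol passes readily from blood into brain. Microglia, the resident macrophages of the brain, and astrocytes, which support neurons and line vessels, respond to injury and infection by raising lysosomal, antigen presentation, complement and acute phase genes, and white matter is rich in both kinds of cell. Neurons record recent firing in a set of immediate early genes, and newly forming oligodendrocytes pass through a brief stage marked by Gpr17 before they make myelin.

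The labels place all sections between bregma -2.0 and -2.2, but the 2 young sections did not hold the same tissue. The young ethanol library had 27 spots of a habenula-like cluster led by Gng8 and Gpr151, and the young vehicle library had 0. Spots of the thalamus stratum made up 6.59% of the vehicle library and 11.25% of the ethanol library, and those of the Hcrt-Pmch hypothalamus 3.57% and 8.02%. Choroid plexus transcripts were lower in ethanol in 15 of 19 strata. The comparison was therefore made within 19 strata, clusters of spots that held at least 40 spots in each young library. Names were given by judgement after the clusters were seen, some from region markers and some from 2 leading genes. No gene used for clustering is reported singly as a result. The region markers were used for clustering, and their summed levels are given only to describe the tissue of a stratum. In 14 strata the numbers of spots of the young libraries were within 1.5 times of each other. The other 5 exceeded that, among them the striatum, the thalamus, the Hcrt-Pmch hypothalamus and the Baiap3-Ngb region. Median depth of the kept spots was 18861.5 UMIs in vehicle and 19077 in ethanol, mitochondrially encoded genes took 13.8% and 14.3% of UMIs, and a stratum summed to between 823451 and 6415641 UMIs in a library. The young libraries shared 1814 barcodes, which on a Visium slide are positions of the common array and not shared cells. Meninges had been removed according to the labels, yet 63 vehicle and 50 ethanol spots formed a stratum led by the meningeal genes Fmod and Slc6a13.

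Levels are given as CPM, counts of a gene per 1000000 UMIs of its stratum in that library. A gene met the rule of size in a stratum when its CPM differed at least 2-fold and its larger count was 50 UMIs or more. Intervals beside ratios are exact conditional binomial 95% intervals and cover counting error only, so they leave out differences between animals and sections. Strata of the same pair of libraries are not replicates of each other. In summed spots, fewer cells of a type and less RNA per cell cannot be told apart.

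The white matter strata held the highest share of genes that met the rule. In the Opalin white matter, named for a myelin protein gene, 74 genes were higher and 39 lower in young ethanol among 5410 tested (2.09%), and in the Klk6 white matter 43 were higher and 22 lower among 3098 (2.1%). Their myelin content was close between libraries: the summed level of 14 myelin markers was 51620 and 49470 CPM in vehicle and ethanol in the former and 25960 and 25990 CPM in the latter. Other tissue was not matched: in the Klk6 white matter reticular thalamus markers summed to 234 and 516 CPM and choroid plexus markers to 2767 and 133 CPM, and in the Opalin white matter the latter summed to 5961 and 1321 CPM. Their part in these counts was not tested. The hippocampal strata held few such genes, 13 of 5731 in CA1 (0.227%), 16 of 4726 in CA3 (0.339%) and 24 of 4669 in the dentate granule layer (0.514%). The cortical strata ranged from 21 of 7663 genes in the Cplx3-Nxph3 region (0.274%) to 66 of 8640 in the Lamp5 upper neocortex (0.764%). Between these were the Rspo1 upper neocortex (0.339%), the Myl4-Fezf2 region (0.371%), the Igfn1-Lmo3 region (0.386%), the Rspo2-Wfdc18 region (0.415%), the Tshz2-Nrep region (0.43%) and the Ccn2-Col23a1 region (0.468%). The meninges stratum gave 23 of 2915 (0.789%). More was found in the strata with unlike numbers of spots: the thalamus 83 of 8519 (0.974%), the striatum 75 of 6481 (1.16%), the Hcrt-Pmch hypothalamus 103 of 7381 (1.4%) and the Baiap3-Ngb region 107 of 7040 (1.52%). With sub-clusters of a stratum given the same weight in both libraries, 11 genes met the rule in the Hcrt-Pmch hypothalamus and 30 in the thalamus, where another rounding of the clustering coordinates, to 5 decimals, gave 166. The direction was mixed, with more genes higher in 13 strata and more lower in 6. Scaling by median-of-ratios size factors moved the split of higher against lower from 15 and 7 to 10 and 12 in the Rspo1 upper neocortex, from 15 and 10 to 11 and 12 in the Myl4-Fezf2 region, and from 48 and 59 to 63 and 45 in the Baiap3-Ngb region. It also moved the split from 74 and 39 to 87 and 25 in the Opalin white matter, from 52 and 14 to 39 and 18 in the Lamp5 upper neocortex and from 72 and 31 to 85 and 21 in the Hcrt-Pmch hypothalamus.

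**Figure D1:**
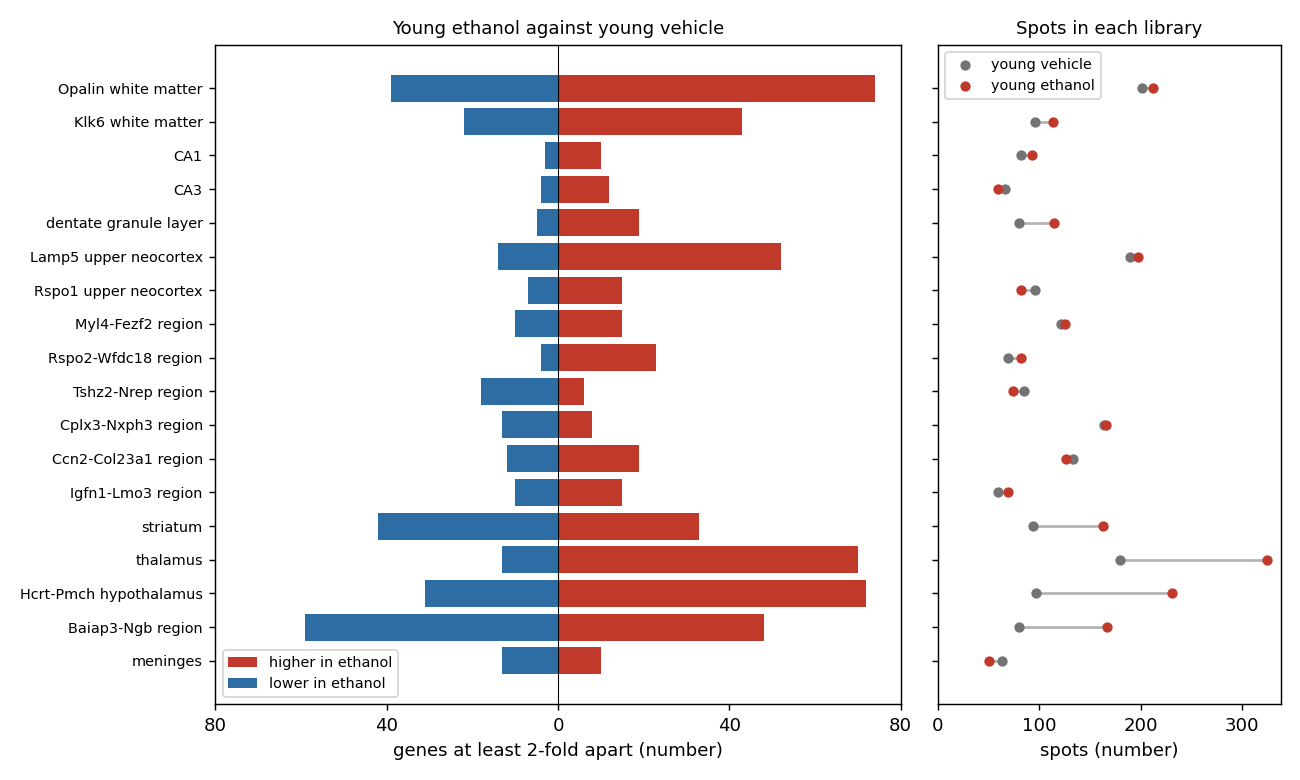
Left, number of genes at least 2-fold higher (red) or lower (blue) in young ethanol than in young vehicle in each of the strata described, for genes whose larger count was 50 UMIs or more. Right, number of spots of each stratum in the 2 libraries. The strata with the widest gap in spots, such as the Hcrt-Pmch hypothalamus with 97 and 231 spots, were among those with the most genes, as were both white matter strata, whose spot numbers were close.

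Genes that met the rule in several strata were few. Of 8195 genes tested in at least 3 strata, 35 were higher in young ethanol in at least 3 of them (0.427%) and 18 were lower (0.22%). Over the 14 strata with like numbers of spots alone, 19 were higher and 8 lower. The genes with the most strata were C4b (12 of the 14 strata in which it was tested), Neat1 (11 of 19), Hba-a1 (10 of 19), Lyz2 (9 of 12), Gfap (8 of 17) and Hbb-bt (8 of 19) on the higher side. On the lower side were Fabp7 (9 of 19), the unnamed transcript Gm10076 (8 of 19), Gpr17 (6 of 9), Arc (5 of 13) and Btg2 (4 of 5). Lars2 met the rule in both directions, higher in 5 strata and lower in 7, and so did Gm42418, in 4 and 6. Strata drawn from region marker scores matched 11 of the 19. Over those 11 these counts were 1 and 1 for Lars2 and 1 and 2 for Gm42418. Among the strata without a match were the Rspo1 upper neocortex, the Myl4-Fezf2 region and the Rspo2-Wfdc18 region, where both genes were lower. The smaller counts are therefore not comparable with those over 19 strata. Over the 14 strata with like numbers of spots Gm42418 was higher in 2 and lower in 6.

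**Figure D2:**
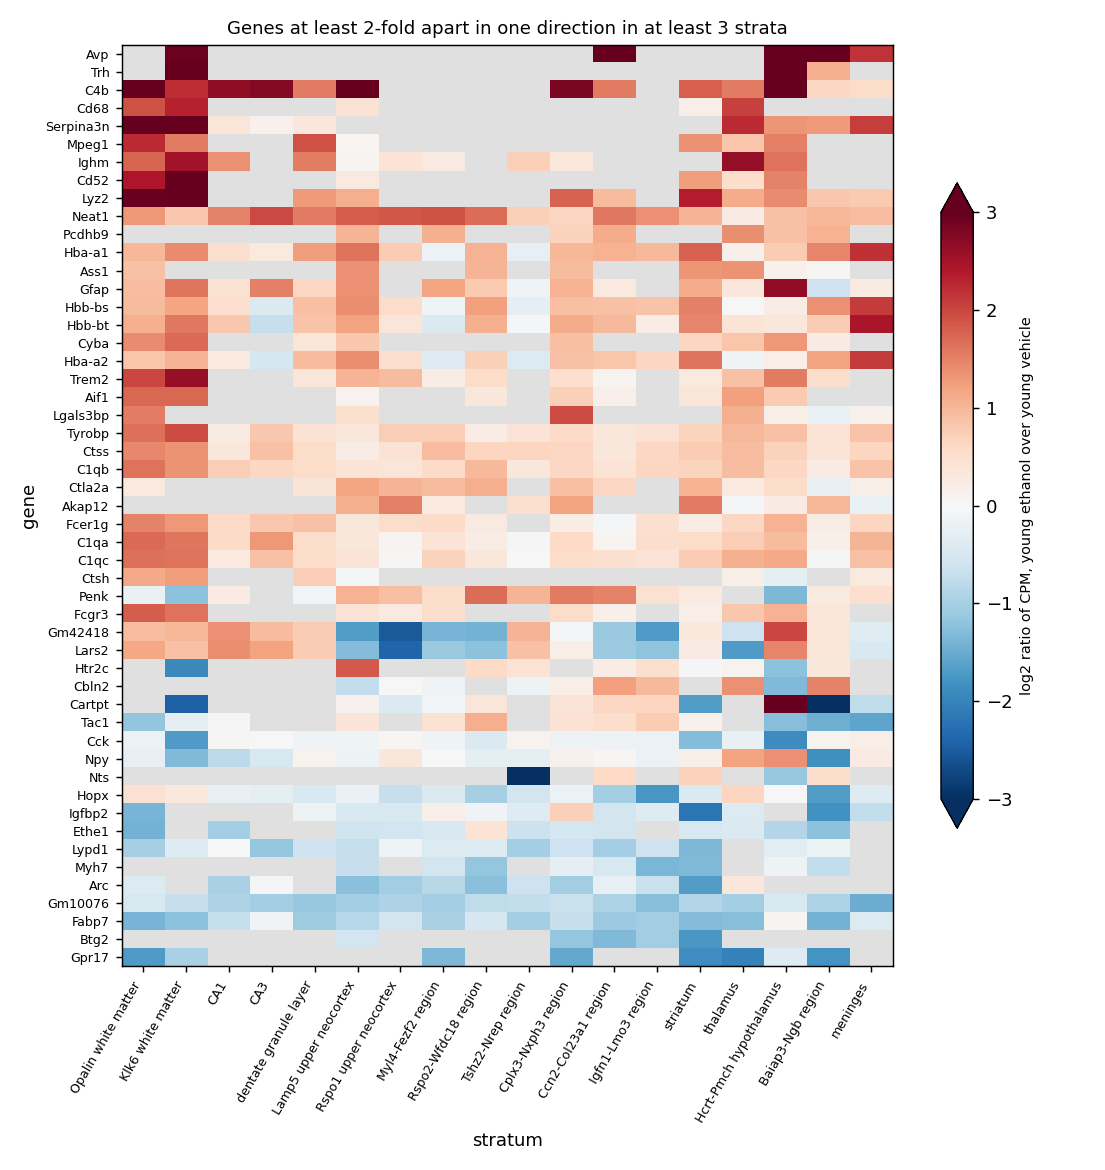
log2 ratio of CPM, young ethanol over young vehicle, of the 51 genes that met the rule in one direction in at least 3 strata, by stratum and ordered by the median. Red is higher in ethanol, blue lower, and grey not tested for want of UMIs. C4b and Neat1 are red in every stratum where they were tested, and Gpr17 and Gm10076 blue, whereas Lars2 and Gm42418 change colour between strata.

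C4b, which encodes complement component 4 and tags cells and debris for clearance, gave the widest pattern. In the Opalin white matter it had 220 UMIs (100.5 CPM) in vehicle and 2213 UMIs (1039 CPM) in ethanol, a ratio of 10.3-fold (95% interval 8.99 to 11.9). The pattern reached well beyond myelin. In CA1, C4b had 19 UMIs (8.62 CPM) in vehicle and 108 UMIs (54 CPM) in ethanol, 6.27-fold higher (3.83 to 10.8), and in CA3 15 UMIs (8.67 CPM) in vehicle and 83 UMIs (58.8 CPM) in ethanol, 6.78-fold higher (3.88 to 12.7). In the Lamp5 upper neocortex there were 8 and 87 UMIs in vehicle and ethanol, 8.13-fold higher (3.95 to 19.4), and in the Cplx3-Nxph3 region 22 and 125 UMIs, 7.05-fold higher (4.46 to 11.7). The dentate granule layer, at 33.7 and 99.4 CPM, gave the lower ratio of 2.95-fold higher (2.13 to 4.15). C4b was higher in ethanol in all 19 strata when strata below the minimum of UMIs were counted too. The meninges, where its vehicle level of 175 CPM was the highest of any stratum, gave 256 CPM in ethanol (1.46-fold), and the Baiap3-Ngb region 1.54-fold, both under 2-fold. C4b shares long stretches of sequence with its neighbour C4a, and how such reads were assigned is not given in the sources used here. After every spot was thinned to 5000 UMIs, 30.9% (24 to 38.6%) of vehicle spots and 96% (91.8 to 98.4%) of ethanol spots of the Opalin white matter held a C4b UMI, with exact Clopper-Pearson intervals. In CA1 the shares were 1.24% (0.0312 to 6.69%) and 24.7% (16.4 to 34.8%). Unthinned shares were 53.2% and 96.2% in the white matter and 21.9% and 63.4% in CA1, at median depths of 10565 and 9182 UMIs and of 23106.5 and 19143 UMIs.

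**Figure D3:**
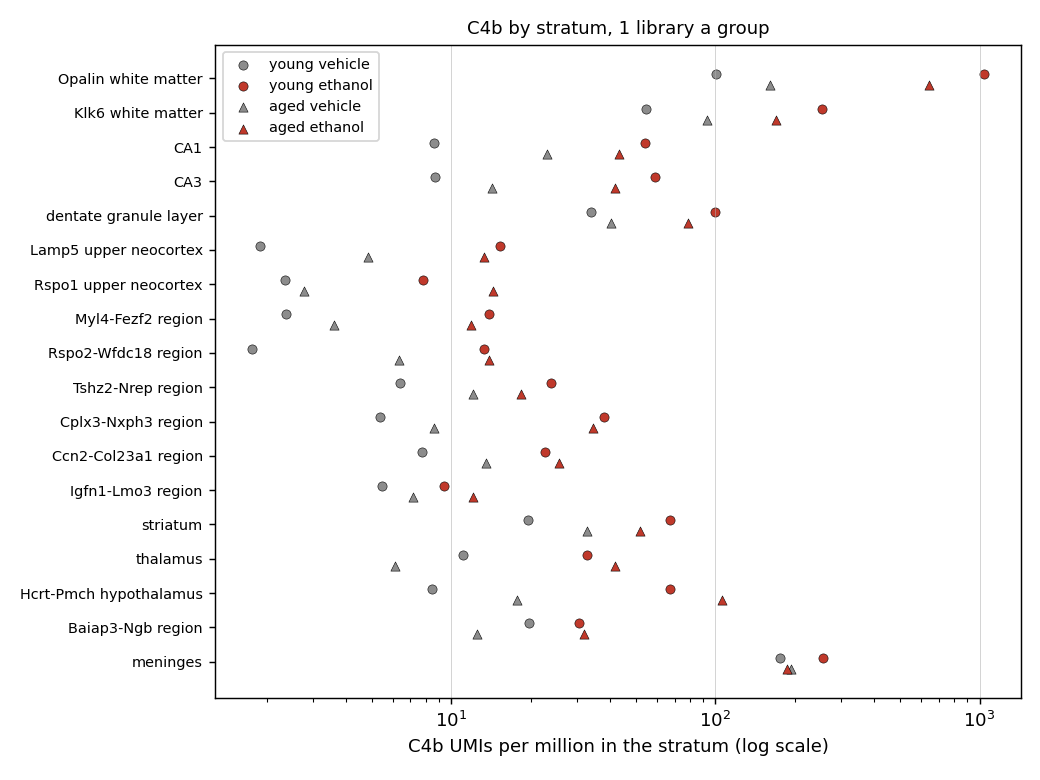
C4b in CPM, on a log scale, in each stratum of the 4 libraries (circles young, triangles aged; grey vehicle, red ethanol; 1 library a group, so no error bars). The young ethanol value lies to the right of the young vehicle value in every stratum shown.

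The C1q chains, which start the classical complement cascade and come mainly from microglia in brain, differed less and in fewer strata. C1qa had 481 and 1530 UMIs in vehicle and ethanol in the Opalin white matter, 3.27-fold higher (2.95 to 3.63), and 111 and 466 UMIs in the Klk6 white matter, 3.04-fold higher (2.46 to 3.77). Among hippocampal strata it met the rule in CA3 alone, with 86 and 174 UMIs, 2.48-fold higher (1.9 to 3.25). C1qa and C1qc met it in 5 strata each and C1qb in 3. Over the 11 strata matched by region marker scores, which leave out the Klk6 white matter, C1qa and C1qc met it in 2 each. Over the 14 strata with like numbers of spots C1qc met it in 2. Of the 16 complement genes, 7 had enough UMIs in any stratum, and 4 of these were higher in at least 3 strata: C4b and the 3 C1q chains. Of all genes tested in at least 3 strata, 0.427% were. The median over the 7 of each gene's median log2 ratio was 0.55, against 0.01 over all genes tested.

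Of 18 homeostatic microglia genes, 17 were tested, 12 were higher in ethanol in at least 1 stratum and 0 were lower in any, where 4.06% and 3.13% of all 9500 genes tested were. The 4 members higher in at least 3 strata were Trem2, Tyrobp, Ctss and Aif1. Other members differed unevenly over the summed strata. In vehicle and ethanol P2ry12 stood at 20.68 and 22.95 CPM, Siglech at 8.188 and 8.499 CPM and Gpr34 at 6.305 and 11.34 CPM. The calls of the list were concentrated by stratum. In the Opalin white matter 11 of 17 were higher, where 1.37% of all genes were, with a median log2 ratio of 1.19 against -0.09 over all genes. In CA1, 0 of 8 met the rule (median -0.09 against 0.00), and in the striatum 0 of 12 (median 0.28 against -0.06). Trem2, a lipid-sensing receptor of microglia, had 94 UMIs (42.9 CPM) in vehicle and 369 UMIs (173 CPM) in ethanol in the Opalin white matter, 4.03-fold higher (3.21 to 5.11), and 18 and 152 UMIs in the Klk6 white matter, 6.11-fold higher (3.73 to 10.6). In the dentate granule layer the share of spots with a Trem2 UMI at 5000 UMIs was 12.5% (6.16 to 21.8%) in vehicle and 11.5% (6.27 to 18.9%) in ethanol. Tyrobp, the signalling partner of Trem2, was 3.15-fold and 3.85-fold higher in the same white matter strata, at 378 and 1158 UMIs and 88 and 469 UMIs.

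The upstream sequences of 3 of these genes are shown because the genes stood higher together in white matter. They come from RefSeq on GRCm38.p6, run 5′ to 3′ on the gene's strand over the 250 bases before the start of the gene, and carry in capitals the letters GAGGAA or, on the other strand, TTCCTC, the core bound by PU.1, a factor that microglia need. Trem2 lies at chr17:48346151-48346400 on the plus strand, C1qb at chr4:136886201-136886450 and C1qc at chr4:136892915-136893164, both on the minus strand.
Trem2: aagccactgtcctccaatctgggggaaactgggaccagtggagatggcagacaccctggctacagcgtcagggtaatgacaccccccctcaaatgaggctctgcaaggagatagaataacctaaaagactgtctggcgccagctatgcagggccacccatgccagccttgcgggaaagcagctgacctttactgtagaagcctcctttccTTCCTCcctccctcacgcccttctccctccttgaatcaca
C1qb: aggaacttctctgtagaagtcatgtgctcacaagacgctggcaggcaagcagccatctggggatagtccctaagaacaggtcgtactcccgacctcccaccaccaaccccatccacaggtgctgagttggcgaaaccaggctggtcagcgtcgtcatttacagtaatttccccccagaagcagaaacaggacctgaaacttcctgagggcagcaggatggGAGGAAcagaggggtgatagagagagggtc
C1qc: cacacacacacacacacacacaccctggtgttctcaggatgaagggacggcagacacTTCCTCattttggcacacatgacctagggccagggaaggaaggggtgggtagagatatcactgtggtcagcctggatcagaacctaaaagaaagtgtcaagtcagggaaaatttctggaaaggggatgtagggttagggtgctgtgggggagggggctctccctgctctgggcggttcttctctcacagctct
The first capital stands 40, 30 and 193 bases before the start in Trem2, C1qb and C1qc. These letters are common, occurring in 23.3% of all 32851 such windows, and in 7 of the 12 homeostatic microglia genes that had one. A search of 12 genes chosen after their values were seen (Serpina3n, Lcn2, Gfap, Lyz2, Trem2, C1qb, C1qc, Cst7, Fabp7, Timp1, Spp1 and Lrg1) for 7 motifs on both strands found none of the motifs in 7 genes. PU.1 letters were in 5 genes, which besides the 3 shown were Lcn2 and Spp1. The C/EBP letters TTGCNNAA or TTNNGCAA were in Lcn2 and Spp1 (9.56% of all windows), the NF-kB motif in C1qc (7.25%) and TATAAA in Spp1 (12.4%). The STAT letters TTCNNNGAA (7.02%), the cyclic AMP element TGACGTCA (1.55%) and the E-box CACGTG (6.02%) were in 0 of the 12. A match is a description of the letters and not a site.

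Disease-associated microglia genes, the lipid and lysosome programme seen around plaques and in demyelination, were higher for 8 of 15 tested in the Opalin white matter, where 1.37% of all genes were higher. Lpl, lipoprotein lipase, was the 1 member lower in any stratum, in the Igfn1-Lmo3 region, and it was higher in 1 other stratum. Cst7, a cathepsin inhibitor, had 2 and 74 UMIs in vehicle and ethanol in the Opalin white matter, a ratio of 38-fold (95% interval 10.2 to 319.7). At 5000 UMIs, 0.606% (0.0153 to 3.33%) and 12.7% (8.14 to 18.6%) of white matter spots held a Cst7 UMI, while 0 of 81 and 0 of 93 CA1 spots did, for which the exact upper bounds are 4.45% and 3.89%. Lyz2, lysozyme of macrophages, was the member with the most strata, though it has a close copy, Lyz1, which makes its counts uncertain. It had 92 and 700 UMIs in the Opalin white matter, 7.82-fold higher (6.28 to 9.82), and 11 and 244 UMIs in the Klk6 white matter, 16-fold higher (8.81 to 32.5). Beyond white matter it had 14 and 105 UMIs in the striatum, 5.14-fold higher (2.93 to 9.73), 25 and 69 UMIs in the Cplx3-Nxph3 region, 3.43-fold higher (2.14 to 5.65), and 20 and 66 UMIs in the dentate granule layer, 2.42-fold higher (1.45 to 4.21). Cd68, a lysosomal protein of phagocytes, was higher in both white matter strata and in the thalamus, at 6 and 77 UMIs in the latter, 4.15-fold higher (1.82 to 11.7). Mpeg1, a pore-forming protein of macrophages, met the rule in the dentate granule layer (11 and 56 UMIs) and the striatum (20 and 75 UMIs) as well as in white matter.

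MHC class I genes, which present peptides on the cell surface, were higher for 5 of 7 tested in at least 1 stratum, and none was lower, against 4.06% and 3.13% of all genes tested. H2-D1 had 147 and 437 UMIs in the Opalin white matter, 3.05-fold higher (2.53 to 3.71), and B2m, the light chain, 472 and 1026 UMIs, 2.23-fold higher (2 to 2.5). The class I genes resemble each other closely, so the split of reads among them is uncertain. Cd74, the class II invariant chain, had 12 and 55 UMIs there, 4.71-fold higher (2.49 to 9.66), and the class II gene H2-Aa was lower in the meninges with 55 and 21 UMIs, 2.17-fold lower (1.29 to 3.78). Of 9 interferon response genes tested, 3 were higher in any stratum and none was lower, where all genes gave 4.06% and 3.13%: Lgals3bp, Ifi27l2a and Stat2. Ifi27l2a had 6 and 52 UMIs in the thalamus, 2.81-fold higher (1.21 to 7.99). Few genes of the chemokine and cytokine list were abundant enough to be tested, 5 of 15. Of these 5, 2 were higher in at least 1 stratum and 0 were lower, beside 4.06% and 3.13% of all genes. Summed over the strata, Tnf had 2 and 3 UMIs and Il1b 28 and 26 UMIs in young vehicle and ethanol. The chemokines Ccl3 and Ccl4 had 9 and 61 UMIs and 6 and 44 UMIs.

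Reactive astrocyte genes were higher for 7 of 9 tested in at least 1 stratum and lower for 0, beside 4.06% and 3.13% of all genes tested. Gfap, the intermediate filament of reactive astrocytes, had a log2 ratio above 0 in 15 of 17 strata tested, the lowest being -0.63. It met the rule in strata outside white matter. It had 22 UMIs (11.6 CPM) in vehicle and 292 UMIs (73.9 CPM) in ethanol in the Hcrt-Pmch hypothalamus, 6.35-fold higher (4.12 to 10.3). There the summed level of 14 hypothalamus markers was 5975 and 15490 CPM in vehicle and ethanol, and its part in the Gfap ratio was not tested. With sub-clusters given the same weight Gfap was higher in 7 strata and lower in 1, in place of 8 and 0. It had 75 and 174 UMIs in CA3, 2.84-fold higher (2.16 to 3.78). In cortex it was 2.58-fold higher in the Lamp5 upper neocortex (45 and 155 UMIs) and 2.07-fold higher in the Cplx3-Nxph3 region (112 and 187 UMIs). In the Opalin white matter Gfap stood at 425 and 805 CPM, 1.89-fold and short of the rule. Serpina3n, a secreted protease inhibitor of reactive astrocytes, followed another distribution. It had 52 and 707 UMIs in the Opalin white matter, 14-fold higher (10.5 to 18.9), 8 and 116 UMIs in the thalamus, 4.69-fold higher (2.3 to 11.1), and 23 and 80 UMIs in the meninges, 4.2-fold higher (2.61 to 6.99). In CA1 its spot share at 5000 UMIs was 19.8% (11.7 to 30.1%) in vehicle and 23.7% (15.5 to 33.6%) in ethanol. In the Opalin white matter that share was 12.1% (7.56 to 18.1%) in vehicle and 62.4% (54.8 to 69.7%) in ethanol (unthinned 18.9% and 65.1%). Timp1, an inhibitor of matrix metalloproteases, had 3 and 64 UMIs in the Opalin white matter, a ratio of 21.9-fold (95% interval 7.17 to 109). Of 15 homeostatic astrocyte genes tested, 0 were higher and 1 was lower in any stratum, where 4.06% and 3.13% of all genes tested were. It was the water channel Aqp4, lower in the thalamus (271 and 393 UMIs, 2.13-fold lower (1.82 to 2.49)) and in the Baiap3-Ngb region (119 and 85 UMIs, 2.08-fold lower (1.56 to 2.79)). Reticular thalamus markers summed to 88.6 and 619 CPM in the former, and choroid plexus markers to 2769 and 41.6 CPM in the latter. Their part in the Aqp4 values was not tested.

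Lcn2, an iron-binding acute phase protein made by reactive astrocytes, vessel cells and neutrophils, was nearly absent from the young vehicle library, with 15 UMIs over the compared strata against 336 in young ethanol. It was at 0 in 14 of 19 strata in vehicle and in 2 of 19 in ethanol. It met the rule in the meninges, with 10 UMIs (10.1 CPM) in vehicle and 93 UMIs (113 CPM) in ethanol, 11.2-fold higher (5.84 to 24.2), and in the dentate granule layer, with 0 UMIs in vehicle and 51 in ethanol. The latter was at least 12.5-fold higher when the vehicle 0 is replaced by 3 UMIs of that stratum. In the meninges 3.23% (0.393 to 11.2%) and 20.4% (10.2 to 34.3%) of spots held an Lcn2 UMI at 5000 UMIs (unthinned 12.7% and 40%), and in the dentate granule layer 0% (0 to 4.51%) and 7.08% (3.11 to 13.5%) did (unthinned 0% and 21.9%). Of the neutrophil genes, S100a8 had 6 and 45 UMIs and S100a9 2 and 37 in young vehicle and ethanol over all strata, while Ngp had 0 in both. The part of such cells in the Lcn2 counts was not tested. The aged pair held 20 and 31 Lcn2 UMIs, and 50 and 7 of S100a8.

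Red cell transcripts were higher in the young ethanol section. The summed haemoglobin level over the library was 1344 CPM in vehicle and 2441 CPM in ethanol. It was 3961 CPM in vehicle and 17460 CPM in ethanol in the meninges, 1149 CPM in vehicle and 3100 CPM in ethanol in the Lamp5 upper neocortex, 1021 CPM in vehicle and 3028 CPM in ethanol in the striatum and 3038 CPM in vehicle and 5989 CPM in ethanol in the dentate granule layer. Hba-a1, an alpha globin chain, had 834 and 3489 UMIs in the Lamp5 upper neocortex, 3.13-fold higher (2.9 to 3.38), and 791 and 2978 UMIs in the meninges, 4.54-fold higher (4.2 to 4.92). The order was opposite in CA3, with 669 CPM in vehicle and 524 CPM in ethanol, in the Myl4-Fezf2 region, with 1811 CPM in vehicle and 1560 CPM in ethanol, and in the Tshz2-Nrep region, with 1525 CPM in vehicle and 1242 CPM in ethanol. The globin genes of a kind are near-identical, so the split of reads among them is uncertain. Alas2, an enzyme of haem synthesis in red cell precursors, had 96 and 269 UMIs over all strata. In the Lamp5 upper neocortex, where 0.602% of all genes tested were higher, vessel genes were among them: Vwf, a clotting factor carrier of endothelium, with 12 and 88 UMIs, 5.48-fold higher (2.98 to 11), the endothelial genes Pecam1 (28 and 76 UMIs, 2.03-fold) and Ly6a (223 and 630 UMIs, 2.11-fold), and Acta2, smooth muscle actin, with 15 and 73 UMIs, 3.64-fold higher (2.07 to 6.83). The summed level of 7 meninges markers was 55.7 and 106 CPM in that stratum, and its median depth was 21560 UMIs per spot in vehicle and 30283 in ethanol. Outside it none of the 15 brain endothelium genes tested met the rule in any stratum. The part of blood and vessel content in the other results of this stratum was not tested.

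Ighm, the heavy chain of immunoglobulin M, was higher in young ethanol in 7 of 12 strata tested. It had 7 and 134 UMIs in the thalamus, 6.2-fold higher (2.92 to 15.7), 27 and 106 UMIs in the dentate granule layer, 2.88-fold higher (1.87 to 4.57), and 30 and 71 UMIs in CA1, 2.61-fold higher (1.68 to 4.14). Over all libraries Ighm was a leading gene of the Cplx3-Nxph3 region, with a log2 ratio of 2.47 over other spots. With a minimum of 200 UMIs it was tested in 1 stratum and did not meet the rule there. Several other lymphocyte genes were scarce. Over all strata Cd79a had 19 and 16 UMIs in young vehicle and ethanol, Ms4a1 0 and 0, Cd3e 0 and 7, and the light chain Igkc 5 and 34, against 6 and 822 in the aged pair. Ighm also met the rule in 10 strata of the aged pair, in the same direction.

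Neat1, a long noncoding RNA that builds nuclear paraspeckles, was higher in young ethanol in all 19 strata and met the rule in 11. It had 448 UMIs (205 CPM) in vehicle and 1079 UMIs (506 CPM) in ethanol in the Opalin white matter, 2.47-fold higher (2.21 to 2.77). The cortical strata gave wider ratios: 38 and 142 UMIs in the Myl4-Fezf2 region, 3.76-fold higher (2.61 to 5.53), 35 and 127 UMIs in the Rspo1 upper neocortex, 3.64-fold higher (2.49 to 5.46), and 38 and 179 UMIs in the Lamp5 upper neocortex, 3.52-fold higher (2.47 to 5.14). In CA3 it had 21 and 67 UMIs, 3.91-fold higher (2.37 to 6.72). Neat1 stays in the nucleus, while Malat1, also nuclear, stood at 216 and 210.5 CPM over the strata. Malat1 met the rule in CA1 alone (393 and 853 UMIs, 2.39-fold higher (2.12 to 2.7)).

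Immediate early genes met the rule on the lower side in ethanol, except in 1 gene and stratum pair. Of 17 tested, 12 were lower in young ethanol in at least 1 stratum and 1 was higher, where 3.13% and 4.06% of all genes tested were. Over 200 gene and stratum pairs 23 were lower and 1 higher. The exception was Fos, which was also among the 12: of 13 strata tested it was higher in 1 and lower in 1. The striatum held 9 of the lower pairs, among 13 genes tested there, where 0.648% of all genes were lower, with a median log2 ratio of -1.40 against -0.06. Fos, a transcription factor induced by firing, had 54 and 18 UMIs in the striatum, 4.37-fold lower (2.52 to 7.92), Junb, its partner, 202 and 71 UMIs, 4.15-fold lower (3.15 to 5.51), the orphan nuclear receptor Nr4a1 190 and 69 UMIs, 4.01-fold lower (3.03 to 5.37), and Npas4, a neuron-specific activity factor, 50 and 16 UMIs, 4.56-fold lower (2.55 to 8.57). The striatum strata did not match in composition. Their spots numbered 94 and 163, the summed level of 8 striatal markers was 1886 and 2653 CPM, and that of 6 choroid plexus markers 4102 and 848 CPM; the part of these in the lower values was not tested.

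Arc, which regulates glutamate receptors at active synapses, was lower in cortical strata as well, whose numbers of spots were close. It had 732 UMIs (173 CPM) in vehicle and 409 UMIs (72.2 CPM) in ethanol in the Lamp5 upper neocortex, 2.39-fold lower (2.12 to 2.71), 824 UMIs (200.4 CPM) in vehicle and 320 UMIs (96.6 CPM) in ethanol in the Cplx3-Nxph3 region, 2.08-fold lower (1.82 to 2.37), and 630 and 306 UMIs in the Rspo1 upper neocortex, 2.05-fold lower (1.79 to 2.36). Median depth was 25602 and 19321 UMIs per spot in vehicle and ethanol in the Cplx3-Nxph3 region, against 21560 and 30283 in the Lamp5 upper neocortex. At 5000 UMIs, 55.6% (48.2 to 62.8%) of Lamp5 upper neocortex spots held an Arc UMI in vehicle and 28% (21.8 to 35%) in ethanol. The Cplx3-Nxph3 region, where 0.17% of all genes tested were lower, had 3 further genes lower, Btg2, an antiproliferative early gene (64 and 23 UMIs, 2.24-fold lower (1.37 to 3.78)), Ier2 (96 and 37 UMIs, 2.09-fold lower (1.42 to 3.14)) and Npas4 (73 and 26 UMIs, 2.26-fold lower (1.43 to 3.69)). In the hippocampus, 0 of 12 immediate early genes in CA1, 0 of 8 in CA3 and 0 of 7 in the dentate granule layer met the rule, with medians of 0.00, -0.02 and 0.41. The difference between regions was not tested. Nr4a2 and Bdnf were lower in the Hcrt-Pmch hypothalamus, with 73 and 8 UMIs and 128 and 65 UMIs. In that stratum hypothalamus markers summed to 5975 and 15490 CPM and layer 6b neocortex markers to 48.1 and 15.9 CPM, and their part in these lower values was not tested.

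**Figure D4:**
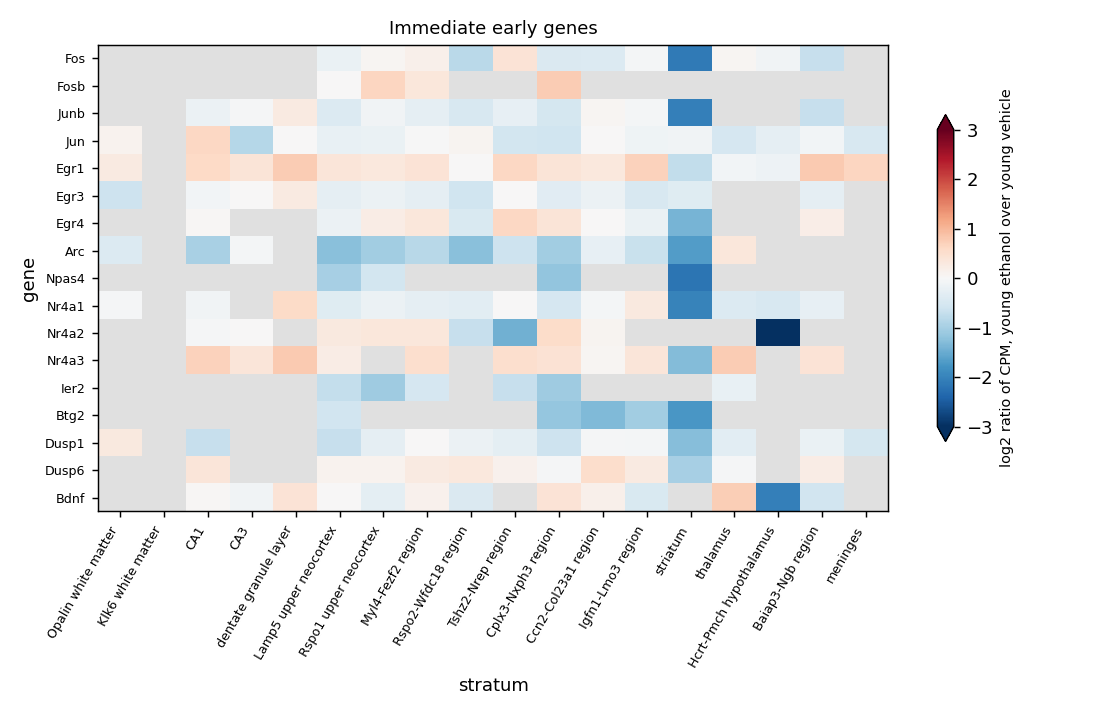
log2 ratio of CPM, young ethanol over young vehicle, of 17 immediate early genes by stratum, red higher and blue lower in ethanol, grey not tested. The striatum column is blue for 9 of 13 genes at least 2-fold, and the Arc row is blue in 5 strata at least 2-fold.

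Gpr17, a receptor of oligodendrocytes about to form myelin, was lower in young ethanol in all 19 strata and met the rule in 6 of the 9 where it was tested. It had 212 UMIs (96.8 CPM) in vehicle and 63 UMIs (29.6 CPM) in ethanol in the Opalin white matter, 3.28-fold lower (2.46 to 4.41), 43.4 and 10.6 CPM in the thalamus, 4.09-fold lower (2.95 to 5.69), 60 and 24 UMIs in the striatum, 3.65-fold lower (2.24 to 6.12), and 79 and 22 UMIs in the Cplx3-Nxph3 region, 2.89-fold lower (1.78 to 4.88). The share of Opalin white matter spots with a Gpr17 UMI at 5000 UMIs was 29.7% (22.9 to 37.3%) in vehicle and 9.25% (5.38 to 14.6%) in ethanol (unthinned 41.8% and 16.5%). Of the 13 precursor and differentiation genes tested, 4 were lower in any stratum and 1 higher, where 3.13% and 4.06% of all genes tested were. Besides Gpr17, Enpp6, an enzyme of newly formed oligodendrocytes, was lower in the Cplx3-Nxph3 region (59 and 23 UMIs, 2.07-fold lower (1.26 to 3.51)), though its log2 ratio was 0.01 with strata drawn from region marker scores, and Sox10, the lineage factor, was higher in the dentate granule layer (17 and 59 UMIs, 2.54-fold higher (1.46 to 4.66)). Msmo1, of cholesterol synthesis, on which myelin depends, was lower in the Klk6 white matter (96 and 58 UMIs, 2.29-fold lower (1.64 to 3.23)). Over all strata 2 of the 18 genes of that pathway were higher and 4 lower in any, where 4.06% and 3.13% of all genes tested were.

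Fabp7, the fatty acid binding protein of astrocytes and radial glia, was lower in 18 of 19 strata and met the rule in 9. It had 343 UMIs (154 CPM) in vehicle and 192 UMIs (57.8 CPM) in ethanol in the Baiap3-Ngb region, 2.66-fold lower (2.22 to 3.19), 225 and 83 UMIs in the Opalin white matter, 2.64-fold lower (2.04 to 3.44), 118 and 70 UMIs in the striatum, 2.46-fold lower (1.81 to 3.35), and 136 and 89 UMIs in the dentate granule layer, 2.08-fold lower (1.58 to 2.75). In the Baiap3-Ngb region, with 80 and 167 spots, choroid plexus markers summed to 2769 and 41.6 CPM in vehicle and ethanol. Habenula markers summed to 29.6 and 152 CPM there, and the part of this tissue in the Fabp7 value was not tested. Fabp7 was lower in the aged ethanol library in 19 of 19 strata. Myoc and Igfbp2, genes of the ventricle wall and meninges, were lower in the Opalin white matter too, Myoc with 272 and 41 UMIs and Igfbp2 with 129 and 48 UMIs. The part of the choroid plexus transcripts of that stratum in these lower values was not tested. Apod, a lipid carrier of oligodendrocytes and fibroblasts, was higher there, with 5206 and 10921 UMIs, 2.15-fold higher (2.08 to 2.23).

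Penk, the precursor of enkephalins, was higher in young ethanol in 5 strata and lower in 2 others, the Klk6 white matter and the Hcrt-Pmch hypothalamus. Over the 11 strata matched by region marker scores, which leave out the Klk6 white matter, Penk was higher in 3 and lower in none. It was also lower in none with clustering at resolution 2, with coordinates rounded to 5 decimals or with sub-clusters given the same weight. Under the last of these it was higher in 3 strata. It had 397 UMIs (146 CPM) in vehicle and 1084 UMIs (408 CPM) in ethanol in the Ccn2-Col23a1 region, 2.79-fold higher (2.49 to 3.14), 100 and 518 UMIs in the Rspo2-Wfdc18 region, 3.17-fold higher (2.56 to 3.97), and 154 and 364 UMIs in the Cplx3-Nxph3 region, 2.93-fold higher (2.42 to 3.56). Penk is abundant in striatal neurons, and the summed striatal markers were 226 and 462 CPM in vehicle and ethanol in the first of these strata, 179 and 361 CPM in the second and 154 and 241 CPM in the third. In the Lamp5 upper neocortex, where those markers were 189 and 219 CPM, Penk had 238 and 657 UMIs, 2.06-fold higher (1.78 to 2.4). The part of striatal tissue was not tested. Avp, vasopressin of neurosecretory neurons, had 1 and 5774 UMIs in the Hcrt-Pmch hypothalamus. Trh, thyrotropin-releasing hormone, had 18 and 775 UMIs there, Pdyn, the dynorphin precursor, 9 and 379 UMIs, and Cartpt 70 and 2351 UMIs. Cartpt and Npy were lower in the Baiap3-Ngb region, with 1511 and 276 UMIs and 845 and 352 UMIs. The section plane and the treatment cannot be told apart for these genes.

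In the thalamus, 4 reticular thalamus markers summed to 88.6 and 619 CPM in vehicle and ethanol, a difference whose part in the other values of this stratum was not tested. Higher beside it were Snx20 (1 and 57 UMIs), the synaptotagmin Syt2 (5 and 231 UMIs), Stac2 (10 and 129 UMIs) and the GABA-A subunit Gabra3 (13 and 134 UMIs, 3.34-fold higher (1.89 to 6.43)). Gabra3 was the only one of 11 GABA-A subunit genes tested that met the rule in any stratum, where 4.06% of all genes tested were higher and 3.13% lower.

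Genes of several groups of interest for ethanol were counted in the same way. Of all 9500 genes tested, 4.06% were higher and 3.13% lower in at least 1 stratum. Within a stratum reported here, from 0.227% (CA1) to 2.1% (Klk6 white matter) of genes tested met the rule. Whether the lists below differ from these shares was not tested. Of 11 ethanol and aldehyde metabolism genes tested, 1, the retinaldehyde enzyme Aldh1a1, met the rule, higher in the Ccn2-Col23a1 region (28 and 78 UMIs, 2.85-fold higher (1.83 to 4.56)) and the striatum (29 and 106 UMIs, 2.51-fold higher (1.65 to 3.92)) and lower in the Hcrt-Pmch hypothalamus (155 and 153 UMIs, 2.12-fold lower (1.68 to 2.66)). Aldh2, the mitochondrial enzyme that clears acetaldehyde, stood at 98.2 and 100 CPM in the Opalin white matter and 89.1 and 72.3 CPM in the thalamus. Of 16 metallothionein and antioxidant genes 0 met the rule in any of 275 gene and stratum pairs, and catalase, Cat, was at 106 and 96.2 CPM in the Opalin white matter. The 20 nuclear oxidative phosphorylation genes gave 0 of 380 pairs, the 15 ionotropic glutamate receptor subunits 0 of 206, the heat shock genes 1 of 273 and the circadian clock genes 2 of 186. Of 13 glucocorticoid response genes 1, Lcn2, was higher and 2, Nr3c1 and Arrdc2, were lower, both in the meninges, and Fkbp5 stood at 34 and 30.5 CPM in CA1. A shift under 2-fold, or one in transcripts with few UMIs, would not have been counted.

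Transcripts tied to ribosomal RNA carry-over and tissue quality differed between strata in opposite directions. Gm42418, which overlaps a ribosomal RNA repeat, had 3876 and 1218 CPM in the Lamp5 upper neocortex, 3.18-fold lower (3.09 to 3.27), and 2246 and 394 CPM in the Rspo1 upper neocortex, 5.71-fold lower (5.33 to 6.11). In CA1 it had 2211 and 5668 CPM, 2.56-fold higher (2.48 to 2.65), and in the Hcrt-Pmch hypothalamus 1222 and 4931 CPM, 4.04-fold higher (3.87 to 4.21). Lars2, a mitochondrial leucyl-tRNA synthetase gene that takes up reads of mitochondrial ribosomal RNA, took the same course, with 1289 and 694 UMIs in the Lamp5 upper neocortex and 480 and 1145 UMIs in CA1. A further cluster of 81 vehicle and 11 ethanol spots, led by Lars2 and Gm42418, was left out. Of the 5 strata with lower Arc, the Lamp5 upper neocortex, the Rspo1 upper neocortex and the Rspo2-Wfdc18 region also had lower Gm42418. The summed share of Lars2, Gm42418 and AY036118 was 0.123% and 0.236% of UMIs in vehicle and ethanol in the Opalin white matter and 0.303% and 0.599% in the Klk6 white matter. The part of tissue quality in the results of these strata was not tested. Gm10076 was lower in all 19 strata and met the rule in 8, with 324 and 214 UMIs in the Lamp5 upper neocortex, 2.03-fold lower (1.7 to 2.42).

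The aged pair shares no library with the young pair, and its values stand beside the young ones without a test of the difference. In it, 43 genes were higher and 18 lower in ethanol in at least 3 strata. Of the 35 young genes, 14 were also among the 43, and of the 18 lower ones 4 were among the 18. C4b had 161 and 642 CPM in aged vehicle and ethanol in the Opalin white matter and 23.1 and 43.1 CPM in CA1, against 100.5 and 1039 CPM and 8.62 and 54 CPM in the young pair, whose log2 ratio was the wider in 16 of 19 strata. Gpr17 had 66.6 and 26.6 CPM in the aged Opalin white matter, and Fabp7 139 and 38.4 CPM. Neat1 met the rule in 0 aged strata, with 22.9 and 19 CPM in the Lamp5 upper neocortex and a median log2 ratio over strata of 0.01 against 1.31 in the young pair. Arc was lower in 1 of the aged strata against 18 of the young, with 96.9 and 118 CPM in the Lamp5 upper neocortex and 52.8 and 63.1 CPM in the striatum.

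**Figure D5:**
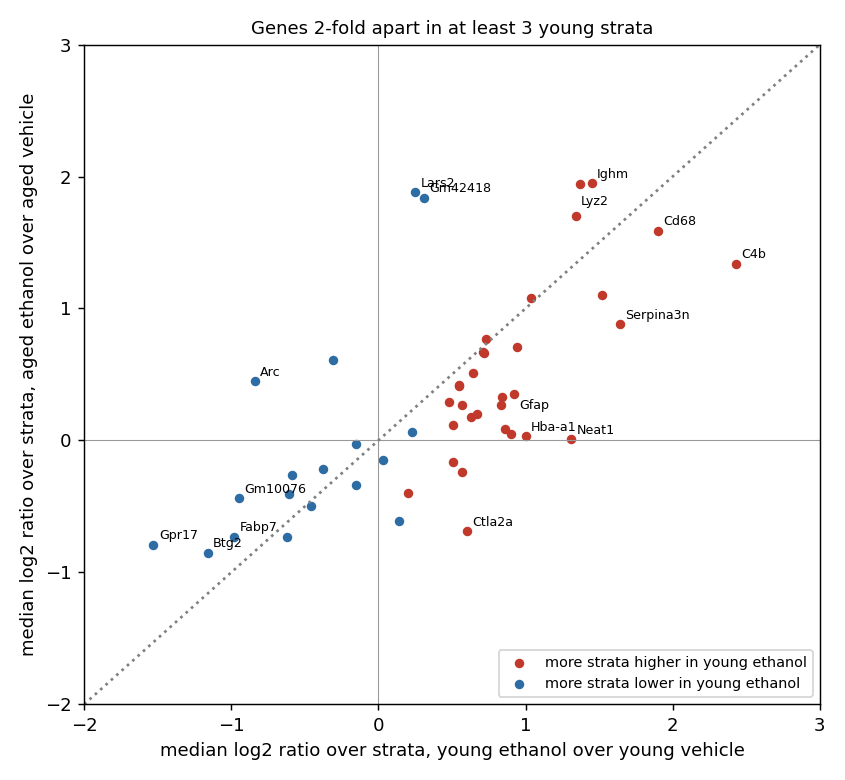
Median over strata of the log2 ratio of CPM, ethanol over vehicle, in the young pair (x axis) and the aged pair (y axis), for genes that met the rule in at least 3 young strata; Avp and Trh, far outside the axes, are left out. The dotted line marks equal medians. C4b and Serpina3n lie right of it, Neat1 and Hba-a1 near 0 on the y axis, and Lars2 and Gm42418 above it.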

How the data were processed

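Visium libraries of 4 mouse brain sections, 1 per group, were analysed from the spot by gene UMI counts that the authors deposited. Alignment was to mm10 with Space Ranger, version 1.3.1 per the file headers and 2.0.0 per the submitters' processing notes, and the counts were not normalized. Whether deposited spots were limited to tissue was not given in the sources used here. No doublet caller was run, since a spot holds several cells.

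Of 11064 deposited spots, those with at least 500 UMIs were kept. Counts were scaled to 10000 per spot and logged, and each gene was centred and scaled within each library. The 1630 genes used were 130 region markers and variable genes, the latter leaving out list, mitochondrial, ribosomal and haemoglobin genes. They were reduced to 30 principal components, and spots were clustered with Leiden (leidenalg 0.10.2, 15 neighbours, resolution 1) into 28 clusters. Clusters were kept and named after they were seen. Because rounding could alter the partition between machines, 3 partitions were made, ratios had been looked at on an earlier one, and the reproducible one was adopted. UMIs were summed by stratum and library. Separate values of 1 of the 19 strata, and of 1 gene, are not reported here, and that stratum enters the counts over strata. Exact conditional binomial intervals came from SciPy 1.17.1, and a 0 was replaced by a floor of 3 UMIs. Spot shares were taken after thinning to 5000 UMIs, leaving out shallower spots, with Clopper-Pearson intervals. The scripts were tested on simulated counts.

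Genes named were the 10 higher and 10 lower genes that met the rule in the most strata, in each stratum the 5 higher and 5 lower whose interval lay farthest from 0, up to 4 members from each of 37 gene lists (578 of 580 genes found), and a short fixed list. Totals of blood, lymphoid and cytokine genes were named after their values were seen. The members and lists were chosen with earlier results of these data known. Alternatives were other UMI minima, scalings, clusterings and strata.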

Additional observations from a re-analysis of the deposited data

Results flagged for a closer look

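Some genes met the rule of size in opposite directions in the young and the aged pair. In each case the difference between the pairs was not tested, since each group was 1 library. Values are log2 ratios of CPM, ethanol over vehicle, first young and then aged, with UMIs in vehicle and ethanol.

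The mitochondrial leucyl-tRNA synthetase gene Lars2 gave -1.31 and 2.12 in the Lamp5 upper neocortex (1289 and 694 UMIs young, 356 and 1229 aged), -2.40 and 1.78 in the Rspo1 upper neocortex (555 and 105 UMIs young, 111 and 426 aged), -1.12 and 2.14 in the Myl4-Fezf2 region (456 and 209 UMIs young, 96 and 639 aged), -1.24 and 2.45 in the Rspo2-Wfdc18 region (554 and 382 UMIs young, 131 and 757 aged), -1.71 and 2.52 in the thalamus (1531 and 1446 UMIs young, 386 and 4118 aged). Gm42418, which overlaps a ribosomal RNA repeat, gave -1.67 and 2.18 in the Lamp5 upper neocortex (16423 and 6906 UMIs young, 3575 and 12834 aged), -2.51 and 1.99 in the Rspo1 upper neocortex (5749 and 1004 UMIs young, 915 and 4071 aged), -1.39 and 1.87 in the Myl4-Fezf2 region (5227 and 1985 UMIs young, 1163 and 6418 aged), -1.42 and 2.67 in the Rspo2-Wfdc18 region (7268 and 4436 UMIs young, 1337 and 9030 aged). Globin genes gave opposite signs in white matter: Hbb-bt 1.06 and -1.70 in the Opalin white matter (244 and 496 UMIs young, 494 and 239 aged), and Hba-a1 1.0 and -1.48 in the Opalin white matter (720 and 1405 UMIs young, 1552 and 878 aged). Of the peptide genes, vasopressin, Avp, gave 2.95 and -3.32 in the Klk6 white matter (9 and 96 UMIs young, 406 and 33 aged). Cort, cortistatin of interneurons, gave 1.08 and -1.47 in the Rspo1 upper neocortex (104 and 219 UMIs young, 99 and 40 aged). Neuropeptide Y, Npy, gave 1.38 and -2.33 in the Hcrt-Pmch hypothalamus (21 and 114 UMIs young, 597 and 163 aged).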

How the results depend on the processing

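The minimum number of UMIs moved every count of genes by over 1.5 times. With a minimum of 10 and of 200 UMIs in place of 50, the genes that met the rule numbered 839 and 32 in the Opalin white matter, 707 and 16 in the Klk6 white matter, 367 and 3 in CA1, 433 and 1 in CA3, 517 and 1 in the dentate granule layer, 506 and 10 in the Lamp5 upper neocortex, 393 and 4 in the Rspo1 upper neocortex. They numbered 380 and 3 in the Myl4-Fezf2 region, 464 and 8 in the Rspo2-Wfdc18 region, 440 and 4 in the Tshz2-Nrep region, 359 and 3 in the Cplx3-Nxph3 region, 400 and 8 in the Ccn2-Col23a1 region, 410 and 3 in the Igfn1-Lmo3 region, and 585 and 14 in the striatum, 591 and 10 in the thalamus, 671 and 26 in the Hcrt-Pmch hypothalamus, 652 and 18 in the Baiap3-Ngb region, 657 and 5 in the meninges. Genes higher in at least 3 strata then numbered 497 and 16 in the young pair and 374 and 10 in the aged pair, and genes lower 270 and 5, and 607 and 2. Sub-clusters given the same weight left 42 genes in the Klk6 white matter, 9 in the dentate granule layer, 9 in the Tshz2-Nrep region, 30 in the thalamus, 11 in the Hcrt-Pmch hypothalamus and 14 in the meninges, with 11 lower in several strata in each pair. Strata drawn from region marker scores gave 21 genes in CA1, 86 in the Igfn1-Lmo3 region and 43 in the meninges, 20 higher and 9 lower in several young strata, and 26 and 10 in the aged pair. Under them Enpp6 in the Cplx3-Nxph3 region turned to a log2 ratio of 0.01 and Sst in the Hcrt-Pmch hypothalamus to -0.23. Of 121 named values, 77 stayed within counting error, 42 moved and 2 turned, and 8 strata had no match. Clustering at resolution 2 gave 15 genes in the Tshz2-Nrep region, 10 lower in several young strata, and -0.01 for Slc6a20a in the Lamp5 upper neocortex. Without mitochondrially encoded genes in the total, 11 were lower in several aged strata, and the split in the Rspo1 upper neocortex was 10 higher and 10 lower. Size factors kept 176 of 180 named values within counting error.

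Alternatives added after seeing the data were strata with like numbers of spots, which gave 19 higher and 8 lower in the young pair and 22 and 5 in the aged pair, and other roundings of the clustering coordinates. Rounding to 5 decimals gave 20 genes in CA1, 166 in the thalamus and 0.11 for Calb2 in the thalamus. The cause of these shifts was not tested. Without thinning, shares of spots were 53.2% for C4b and 18.9% for Serpina3n in the Opalin white matter of vehicle, 18.9% for Cst7 there in ethanol, 21.95% and 63.4% for C4b in CA1 of vehicle and ethanol, 21.9% for Lcn2 in the dentate granule layer of ethanol, and 12.7% and 40% for Lcn2 in the meninges of vehicle and ethanol. No paired analysis was possible because each group was 1 library, and leaving out a replicate could not be run for the same reason. Intervals cover counting error, and no value separates treatment from animal, section or plane.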

Other observations

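Genes of the lysosome list were higher in young ethanol for 5 of 15 tested and lower for 0, where 4.06% and 3.13% of all genes tested were, with 9 of 260 gene and stratum pairs higher and 0 lower. Ctsh, a cathepsin, had 71 and 151 UMIs in vehicle and ethanol in the Opalin white matter, 2.19-fold higher (1.64 to 2.94), and Laptm5, a lysosomal membrane protein, 95 and 281 UMIs, 3.04-fold higher (2.4 to 3.88). Interneuron genes met the rule in both directions, with 14 pairs higher and 13 lower of 184. Of 13 tested, 11 were higher and 5 lower in at least 1 stratum, where 4.06% and 3.13% of all genes tested were. Sst, somatostatin, had 3655 and 2435 UMIs in the Baiap3-Ngb region, 2.23-fold lower (2.12 to 2.35), a stratum whose numbers of spots were unlike. Hopx, a gene of quiescent progenitors and astrocytes, was lower in 3 strata, among them the Ccn2-Col23a1 region with 209 and 101 UMIs, 2.02-fold lower (1.59 to 2.59).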
